A study of Homo sapiens with 11 samples.

Results

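The 7 genes described here move sodium, protons and bicarbonate across the kidney tubule. They were taken by name from the RNA-seq data of HK2 cells, and all 7 were found among 58288 genes, 19646 of which were protein-coding genes that could be placed on the human genome build GRCh37 (hg19). They are SLC9A3, SLC4A2, SLC4A4, CA2, CA4, CA12 and ATP1B1, a choice by name that uses no threshold on a measured value. For each gene the RNA level was set beside peaks of H3K4me3, a mark of promoters, H3K27ac, a mark of active promoters and enhancers, and H3K27me3, the mark laid down by Polycomb.

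HK2 is an immortalised human cell line labelled as proximal tubular epithelial cells, and a single line cannot stand for the range of tubule cells in a kidney. All libraries came from HK2 cells grown without a treatment contrast, in DMEM-F12 medium with fetal bovine serum, antibiotics and a small amount of DMSO. RNA-seq had 2 libraries and ChIP-seq had 2 replicates of each of 3 marks, and the labels do not say whether replicates were separate cultures. There was 1 condition, so nothing was tested and the values below are levels, counts and ranges, with the spread between these libraries as the only error. The input DNA and the HiChIP libraries were not used here.

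In the proximal tubule, sodium enters from the urine through apical carriers and is pumped out at the basolateral side by the Na,K-ATPase. The apical exchanger NHE3 trades sodium for protons, the protons turn filtered bicarbonate into carbon dioxide and water with the help of carbonic anhydrase on the membrane, and cytosolic carbonic anhydrase makes bicarbonate again inside the cell. Bicarbonate then leaves to the blood with sodium through NBCe1. In this scheme ATP1B1 encodes the beta subunit of the pump, SLC9A3 encodes NHE3, SLC4A4 encodes NBCe1, SLC4A2 encodes the chloride-bicarbonate exchanger AE2, CA2 encodes the cytosolic carbonic anhydrase, and CA4 and CA12 encode carbonic anhydrases anchored at the cell surface.

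The levels covered a wide range. FPKM, the count of RNA fragments scaled by transcript length and sequencing depth, was summed over the transcripts of each gene. ATP1B1 was the highest at an FPKM of 60.4 in library 1 and 62.1 in library 2 (mean 61.2 ± 1.24, SD, n = 2). SLC4A2 followed at 48.3 and 45.1 (46.7 ± 2.30). CA2 had an FPKM of 13.6 and 16.0 (14.8 ± 1.66) and SLC4A4 one of 12.8 and 14.0 (13.4 ± 0.813). These were the only neighbours in the order whose libraries overlapped. CA12 was low at 1.21 and 1.45 (1.33 ± 0.170), SLC9A3 lower still at 0.364 and 0.244 (0.304 ± 0.0848), and CA4 was listed at 0 in both libraries. The genes of the pump subunit, both bicarbonate carriers and the cytosolic enzyme were thus above CA12, SLC9A3 and CA4 in both libraries.

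**Figure D1:**
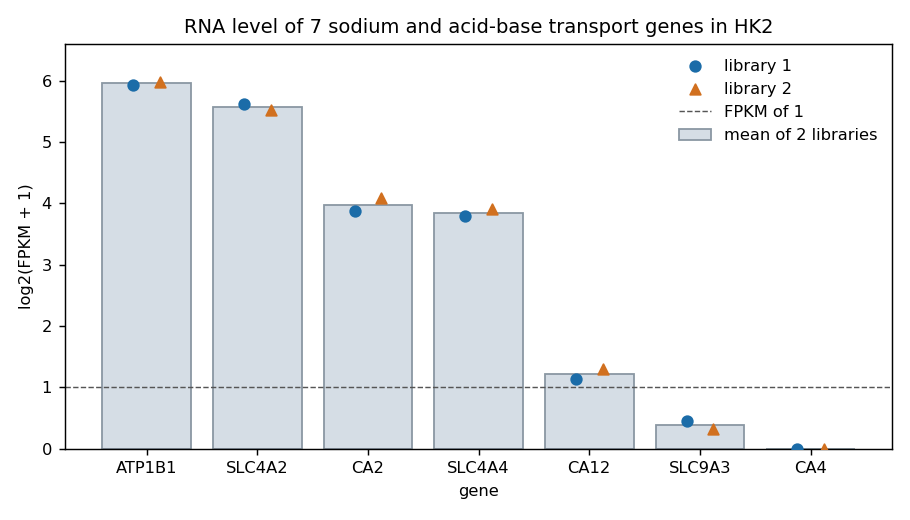
RNA level of the 7 genes in HK2 cells, as log2(FPKM + 1), with bars at the mean of 2 libraries and a point for each library. ATP1B1 and SLC4A2 are highest, CA2 and SLC4A4 overlap, and SLC9A3 and CA4 lie below an FPKM of 1 in both libraries.

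A gene was called expressed where each of the 2 libraries had an FPKM of 1 or more. This held for 5 of the 7 genes, beside 58.8% of all protein-coding genes, so the share was not far from the background. CA4 was 1 of 7 genes at 0 in both libraries, beside 19.6% of all protein-coding genes. The median of the 7 means was an FPKM of 13.4, against 3.32 over all protein-coding genes and 11.1 over the expressed ones. Of all protein-coding genes, 95.5% had a lower mean FPKM than ATP1B1, 93.6% than SLC4A2, 76.7% than CA2, 74.5% than SLC4A4, 42.0% than CA12 and 34.3% than SLC9A3. The libraries were close to each other for all 7 genes. On the log2(FPKM + 1) scale, which shrinks the differences of low genes, the largest difference of library 2 from library 1 was 0.21, for CA2. None of the 7 differed by more than 1.5-fold between libraries on that scale, beside 2.34% of all protein-coding genes.

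A peak was counted as near a start if it reached to 1 kb or less from any annotated transcript start of the gene. H3K4me3 was near a start in both replicates for 6 of the 7 genes, beside 70.3% of all protein-coding genes, and H3K27ac for 4, beside 55%. The 4 genes with both marks in both replicates, ATP1B1, SLC4A2, CA2 and SLC4A4, were also the 4 highest in RNA, and 53.5% of all protein-coding genes carried both. CA12 and CA4 had H3K4me3 in both replicates and H3K27ac in neither, a state of 6.34% of all protein-coding genes. H3K27me3 was near a start in both replicates for SLC9A3 and CA4, 2 of the 7, beside 11.4%. CA4 alone of the 7 had H3K4me3 and H3K27me3 together in both replicates, beside 7.02% of all protein-coding genes. All 7 had a peak of some mark near a start in at least 1 replicate, while 15.1% of all protein-coding genes had none.

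**Figure D2:**
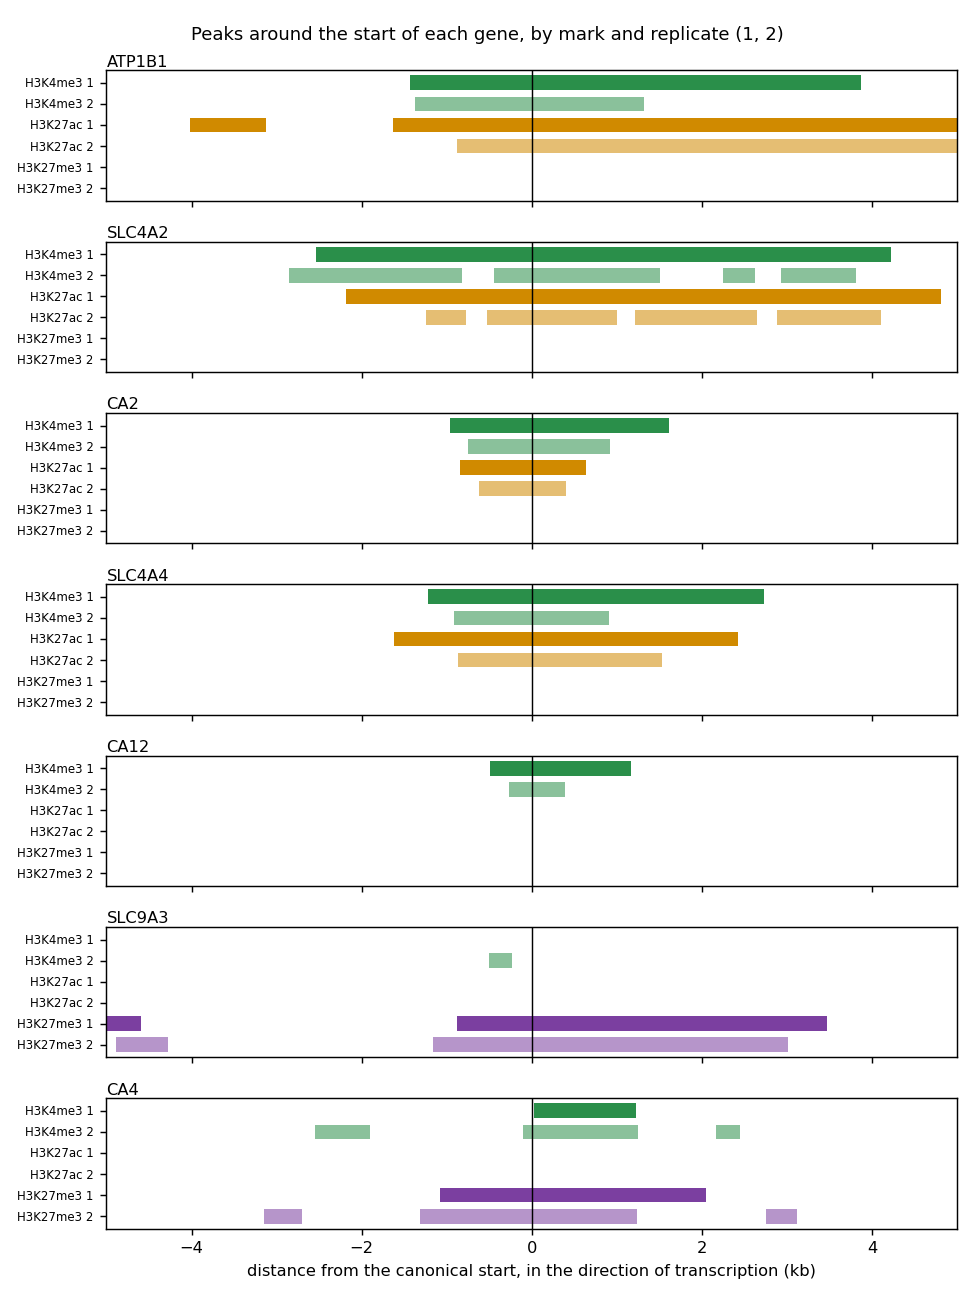
Peaks within 5 kb of the canonical start of each gene, with distance in kb in the direction of transcription on the x axis and 1 row for each mark and replicate (1 dark, 2 pale). The upper 4 genes carry H3K4me3 and H3K27ac across the start in both replicates, CA12 carries H3K4me3 without H3K27ac, and SLC9A3 and CA4 lie under H3K27me3.

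ATP1B1 (ENSG00000143153, chr1:169074935-169280230, plus strand) encodes the beta 1 subunit, which the catalytic alpha subunit needs to fold and reach the membrane. Transcript ATP1B1-201 took 89.4% of the gene's FPKM in library 1, with an FPKM of 54.0 there and 55.6 in library 2. ATP1B1-202, which starts further upstream and encodes the same 303 residues, had an FPKM of 6.40 and 6.55. The proportions were thus nearly the same in both libraries.

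The start of ATP1B1 lay under the widest active block of the 7 genes. A single H3K27ac peak of 15803 bp in replicate 1 and of 11758 bp in replicate 2 ran over the start and into the gene. It was wider than 99.7% of the H3K27ac peaks of replicate 1 and than 99.95% of those of replicate 2. H3K4me3 covered 5303 bp and 2690 bp at the same start, wider than 99.1% and 99.0% of the peaks in those lists. Of the 26.03 kb span of the canonical transcript, 45.2% lay under H3K27ac in both replicates. The median over the canonical spans of 19546 other protein-coding genes was 0.695%, and 98.6% of them had a lower share. The canonical span was chosen as a limit after seeing the data. The annotated gene runs far beyond that span and overlaps NME7 on the opposite strand (FPKM 8.46 and 9.15) over 178462 bp. Only 7.51% of the whole gene lay under H3K27ac in both replicates, and 85.0% of protein-coding genes had a lower share. Without replicate 2 the share of the whole ATP1B1 gene was 14.9%. No H3K27me3 peak lay nearer than 42007 bp in replicate 1 or 93061 bp in replicate 2. The pseudogene ATP1B1P1 was listed at an FPKM of 0.0570 and 0.199, and reads shared with it could be split by the counting.

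SLC9A3 (ENSG00000066230, chr5:470571-524564, minus strand) encodes NHE3, the main apical route of sodium entry and proton secretion in the proximal tubule. Its whole FPKM of 0.364 and 0.244 came from the canonical transcript SLC9A3-201 of 834 residues. The named copies SLC9A3P1 and SLC9A3P2 were at 0 in both libraries and SLC9A3P3 at 0 and 0.0488. The start lay inside an H3K27me3 peak of 4346 bp in replicate 1 and of 4177 bp in replicate 2, wider than 90.8% and 98.6% of the peaks in those lists. H3K4me3 came within 1 kb of it in replicate 2 alone, as a peak of 273 bp that ended 235 bp upstream. That is the narrowest width found in that list, which holds 73505 peaks against 28615 in replicate 1, and 24.5% of its peaks met a peak of replicate 1. No H3K27ac peak lay within 49790 bp of the start in either replicate.

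The bases before the SLC9A3 start are shown because the start sat under a repressive mark and its sequence was rich in CpG. Promoter sequences here are RefSeq's 250 bases before a start, found by exact match at 1 place in GRCh37, 5′ to 3′ on the gene's strand, with capitals marking GGGCGG (the GC box), CCAAT (the CCAAT box), TATAAA (the TATA box) or ACGTG (the core of an E-box or hypoxia element) on either strand. For SLC9A3 the bases are chr5:524565-524814 on the minus strand.
SLC9A3: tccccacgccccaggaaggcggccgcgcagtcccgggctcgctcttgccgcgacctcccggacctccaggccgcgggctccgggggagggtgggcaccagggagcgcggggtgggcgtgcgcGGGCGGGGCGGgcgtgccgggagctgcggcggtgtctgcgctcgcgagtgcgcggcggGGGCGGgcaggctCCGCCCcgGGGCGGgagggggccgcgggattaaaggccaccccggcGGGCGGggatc
The CpG content was 0.968 of that expected from the base composition over 300 bases around this start. This was higher than in 88.6% of 34943 RefSeq promoters, whose median was 0.577. GGGCGG occurred 6 times before the start on either strand, and 44.9% of all promoters held it at least once. All 300 bases lay under H3K27me3 in both replicates and none under H3K27ac.

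Among protein-coding genes, 481 others had the same presence and absence of each mark in each replicate as SLC9A3. Their median FPKM was 0, and 97.3% had a lower mean than SLC9A3. The gene was thus low among all genes but above most of those with its marks. Of those, 0.624% were expressed, so the comparison lies near the floor. SLC9A3 had this pattern only through the H3K4me3 peak of 273 bp in replicate 2. Active marks did appear at the far end of SLC9A3, where H3K27ac lay in both replicates. An H3K4me3 peak of 3005 bp began there 49616 bp downstream of the start in replicate 1, and one of 2691 bp began at 49678 bp in replicate 2. Those peaks held all 4 annotated starts of PP7080, a long noncoding RNA on the same strand with an FPKM of 18.2 and 17.4, under H3K4me3 in both replicates. They also held 2 of the 12 starts of SLC9A3-AS1 on the opposite strand (FPKM 6.08 and 7.26). The strand of the RNA reads is not given in the sources used here, and without it reads from SLC9A3 and SLC9A3-AS1 cannot be told apart where they overlap. The same holds for EXOC3 on the opposite strand (FPKM 17.4 and 17.9), which overlaps SLC9A3 over 1482 bp. PP7080 overlaps SLC9A3 over 2643 bp on the same strand, so strand alone would not separate reads there.

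SLC4A4 (ENSG00000080493, chr4:71928384-72437804, plus strand) encodes NBCe1, which carries sodium and bicarbonate together. Its main products begin at separate starts. SLC4A4-201 begins at the upstream start and encodes 1079 residues, the widely expressed form NBCe1-B. SLC4A4-202 begins 151761 bp further downstream inside the gene and encodes 1035 residues, the form NBCe1-A known from the kidney proximal tubule. SLC4A4-202 was the more abundant, with an FPKM of 7.94 in library 1 and 8.22 in library 2. SLC4A4-201 had an FPKM of 3.63 and 4.26. Over all transcripts from each start, the internal start gave an FPKM of 8.24 and 8.55 (8.39 ± 0.221, SD, n = 2), or 64.2% and 61.1% of the gene. The upstream start gave 4.12 and 4.91 (4.51 ± 0.560), or 32.1% and 35.1%. The internal start was 2.0 times the upstream start in library 1 and 1.74 times in library 2, and the libraries of the starts did not overlap. The split between transcripts rests on reads from the few exons that differ.

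The peaks did not follow that order. The upstream start carried H3K4me3 of 3953 bp and 1828 bp and H3K27ac of 4043 bp and 2404 bp, in replicates 1 and 2. The internal start carried H3K27ac of 2971 bp and H3K4me3 of 882 bp in replicate 1 and neither mark in replicate 2. The H3K4me3 peak there began just downstream of the start of SLC4A4-202. Peaks of both marks in replicate 1 and of neither in replicate 2 were seen at the start of 29 of 8258 transcripts of protein-coding genes that reached an FPKM of 5 in each library, or 0.351%. The H3K27ac list of replicate 2 was shorter than that of replicate 1, with 38554 peaks against 57687. Of its peaks, 97.4% met a peak of replicate 1, while 44.1% of those of replicate 1 met one of replicate 2. The H3K4me3 list of replicate 2 was instead the longer one, with 73505 peaks against 28615, and held no peak at the internal start. Its peaks were narrower, with a median width of 434 bp against 1194 bp. The paper lists fewer aligned read pairs and a smaller share of reads in peaks for replicate 2 of both marks. The length of a list thus does not give its sensitivity. The part of peak calling in the missing peaks was not tested.

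Both SLC4A4 starts are shown because they differed in marks, in RNA and in base composition. The upstream bases are chr4:72052726-72052975 and the internal ones chr4:72204487-72204736, both on the plus strand.
SLC4A4 upstream start: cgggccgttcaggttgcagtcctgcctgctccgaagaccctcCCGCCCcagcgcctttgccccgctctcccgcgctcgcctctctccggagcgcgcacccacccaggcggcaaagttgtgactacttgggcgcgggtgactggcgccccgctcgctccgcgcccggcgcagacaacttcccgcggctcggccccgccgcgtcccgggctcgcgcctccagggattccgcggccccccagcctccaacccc
SLC4A4 internal start: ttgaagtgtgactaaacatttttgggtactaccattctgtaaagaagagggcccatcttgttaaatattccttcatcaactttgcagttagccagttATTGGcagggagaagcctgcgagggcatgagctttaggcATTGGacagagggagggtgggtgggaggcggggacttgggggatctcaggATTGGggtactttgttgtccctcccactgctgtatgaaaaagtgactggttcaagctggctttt
The 300 bases around the upstream start had a CpG content of 1.03 of that expected and a GC content of 77.3%, with a higher CpG content than 93.7% of all promoters. The internal start had a CpG content of 0.137 and a GC content of 47.3%, and 14.0% of all promoters had a lower CpG content. It held CCAAT 3 times, each on the opposite strand as ATTGG, and no GGGCGG. Of all promoters, 34.6% held CCAAT. The upstream start held GGGCGG once and no CCAAT. Neither held TATAAA, which 11.6% of all promoters did, nor ACGTG, found in 21.4%.

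H3K27ac was also spread through the introns of SLC4A4. In replicate 1 the gene held 34 H3K27ac peaks and in replicate 2 it held 15. Stretches under H3K27ac in both replicates and more than 1 kb from any start numbered 14, with 13379 bp in all. All 14 were intronic and 13 had no H3K4me3 peak. The longest, of 2179 bp, lay at chr4:72158071-72160249, between the upstream and the internal start. It belonged to a run of 5 stretches from chr4:72152893 to chr4:72161829, and 3 others lay upstream of the canonical start, in an intron of a longer transcript. Of the whole gene, 3.10% lay under H3K27ac in both replicates, and 13.8% without replicate 2. Over all protein-coding genes the median was 0.890%, and 70.2% of them had a lower share than SLC4A4. Among 982 other protein-coding genes of 250 kb to 1 Mb the median was 0.372%, and 90.8% of them had a lower share. No H3K27me3 peak came near a start of SLC4A4.

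**Figure D3:**
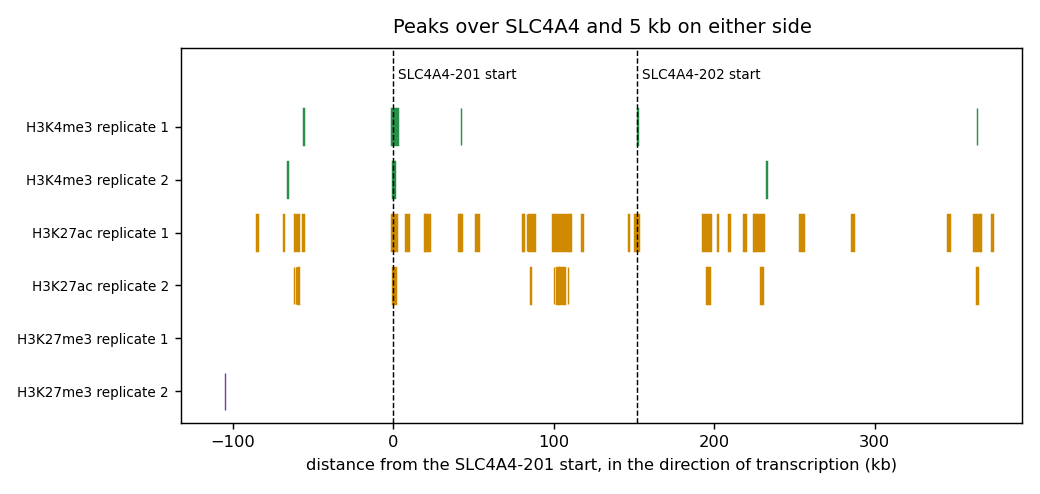
Peaks over SLC4A4 and 5 kb on either side, with distance from the SLC4A4-201 start in kb on the x axis and 1 row for each mark and replicate. The upstream start is covered by H3K4me3 and H3K27ac in both replicates, the SLC4A4-202 start by H3K27ac in replicate 1 alone with H3K4me3 just downstream of it, and H3K27ac recurs through the introns in both.

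SLC4A2 (ENSG00000164889, chr7:150754297-150773613, plus strand) encodes AE2, which exchanges chloride for bicarbonate at the basolateral membrane of many epithelia. At a mean FPKM of 46.7 it was above 88.2% of the 10092 other genes with its marks. Its start region is crowded. H3K4me3 ran over 6761 bp and H3K27ac over 6990 bp in replicate 1, each as 1 peak. In replicate 2 the same region held 4 separate peaks of each mark, and 2 more H3K4me3 peaks lay near starts further into the gene. Of 20 annotated starts, 12 lay inside an H3K4me3 peak in replicate 1 and 9 in replicate 2, and 11 and 9 lay inside an H3K27ac peak. Of the gene, 24.7% lay under H3K4me3 and 24.1% under H3K27ac in both replicates, higher shares than in 94.7% and 96.2% of protein-coding genes. Without replicate 2 the H3K27ac share was 36.2%. The nearest H3K27me3 peak was 76923 bp away.

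The split of SLC4A2 between transcripts was not stable. SLC4A2-202, the canonical transcript of 1241 residues, had an FPKM of 18.5 in library 1 and 10.8 in library 2. SLC4A2-201, which starts 2958 bp downstream and encodes 1232 residues, had an FPKM of 10.5 and 16.4. The order of these transcripts thus reversed between libraries, although the gene as a whole differed by 0.10 on the log2(FPKM + 1) scale, and which start was used more cannot be given from these data. SLC4A2-212 came next at 5.47 and 5.40. The bases before both starts are shown because both starts lay under active marks in both replicates and yet differed in letters. They are chr7:150756426-150756675 and chr7:150759384-150759633 on the plus strand. In replicate 2, all 300 bases around the SLC4A2-202 start lay under both marks. Around the SLC4A2-201 start, 86 of 300 lay under H3K4me3 and 123 under H3K27ac in that replicate.
SLC4A2-202 start: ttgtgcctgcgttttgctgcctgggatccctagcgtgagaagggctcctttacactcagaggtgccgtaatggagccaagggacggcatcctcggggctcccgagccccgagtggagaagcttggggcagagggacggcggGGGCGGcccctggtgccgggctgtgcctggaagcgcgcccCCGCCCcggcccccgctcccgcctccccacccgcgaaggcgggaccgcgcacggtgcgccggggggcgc
SLC4A2-201 start: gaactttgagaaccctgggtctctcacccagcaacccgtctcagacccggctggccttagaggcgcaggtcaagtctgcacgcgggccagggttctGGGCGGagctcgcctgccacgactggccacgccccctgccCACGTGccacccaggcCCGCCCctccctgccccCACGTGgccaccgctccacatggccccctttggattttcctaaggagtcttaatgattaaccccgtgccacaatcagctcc
The bases before the SLC4A2-201 start held CACGTG at 2 places, each read as ACGTG on both strands, and GGGCGG at 2 places. Those before the SLC4A2-202 start held GGGCGG at 2 places and no ACGTG. Over 300 bases the CpG content was 0.793 of that expected at the SLC4A2-202 start and 0.518 at the SLC4A2-201 start. CDK5, on the opposite strand, has a start 303 bp from the nearest start of SLC4A2 and an FPKM of 9.72 and 11.2, so a peak there cannot be assigned to 1 of these genes.

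CA2 (ENSG00000104267, chr8:86376197-86393722, plus strand) encodes the fast cytosolic enzyme that makes bicarbonate and protons from carbon dioxide and water. The canonical transcript CA2-201 of 260 residues had an FPKM of 12.8 and 15.2. H3K4me3 peaks of 2571 bp and 1676 bp and H3K27ac peaks of 1475 bp and 1033 bp covered the start in replicates 1 and 2. All 5 annotated starts lay inside these peaks in both replicates, and no other peak of either mark was found in the gene. CA3-AS1, a noncoding RNA on the opposite strand, starts 167 bp away and had an FPKM of 0.534 and 0.535. Of the gene, 2.54% lay under H3K27ac in both replicates, beside 3.10% of the much longer SLC4A4. Of all protein-coding genes, 66.6% had a lower share than CA2. Without replicate 2 the CA2 share was 3.83%.

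CA4 (ENSG00000167434, chr17:58227303-58248260, plus strand) encodes the enzyme held by a lipid anchor on the brush border of the proximal tubule. All 6 of its transcripts were listed at 0 in both libraries. Its start lay in H3K27me3 peaks of 3127 bp and 2545 bp, with H3K4me3 of 1200 bp beginning 29 bp downstream in replicate 1 and of 1352 bp across the start in replicate 2. This pairing of an activating and a repressive mark is called bivalent, though peaks from a population of cells do not say whether both sit on the same copy. No H3K27ac lay in the gene, and the nearest was 6951 bp upstream in replicate 1 and 14390 bp in replicate 2. The same marks were found at 855 other protein-coding genes, with a median FPKM of 0.0536 and 5.15% of them expressed.

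CA12 (ENSG00000074410, chr15:63613577-63674045, minus strand) encodes an enzyme that spans the membrane with its active site outside the cell. Its start lay under H3K4me3 of 1653 bp and 666 bp with no H3K27ac and no H3K27me3. The nearest H3K27ac peaks lay in the gene, 8494 bp and 8564 bp downstream of the start, and overlapped over 651 bp of an intron at chr15:63664831-63665481. The marks of CA12 were shared by 282 other protein-coding genes, 21.3% of which were expressed. Their median FPKM was 0.285, and 82.6% had a lower mean than CA12. The transcripts of CA12 were split unevenly between libraries. CA12-201, of 354 residues, had an FPKM of 0.578 and 0.683, but CA12-202, of 343 residues, had 0.0322 and 0.739, and CA12-203, of 283 residues, had 0.358 and 0. At this low level the share of each form cannot be given.

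The bases before the CA12 start are shown because the start carried H3K4me3 without H3K27ac. They are chr15:63674046-63674295 on the minus strand.
CA12: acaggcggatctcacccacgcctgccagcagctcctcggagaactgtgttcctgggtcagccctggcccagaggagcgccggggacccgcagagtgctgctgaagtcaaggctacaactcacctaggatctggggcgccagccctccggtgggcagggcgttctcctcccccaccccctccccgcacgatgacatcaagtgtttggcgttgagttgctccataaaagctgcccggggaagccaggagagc
None of the 4 words searched was found before this start, and GGGCGG occurred once in the 50 bases after it. The CpG content of 0.662 was above that of 55.3% of all promoters. Matches of such short words describe the sequence and say nothing of whether a factor was bound. SLC9A3, CA12, SLC4A2, SLC4A4 and ATP1B1 matched entries in the RefSeq promoters, 12 in all.

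**Figure D4:**
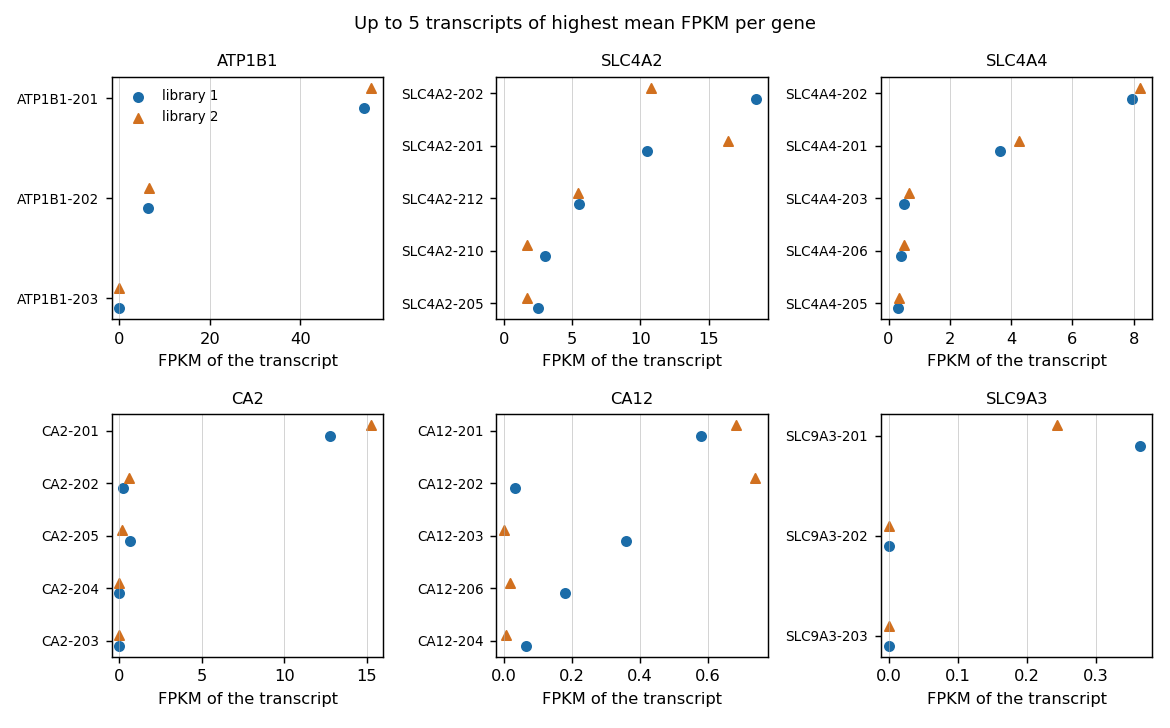
FPKM of up to 5 transcripts of highest mean per gene, with a point for each library. SLC4A4-202 lies above SLC4A4-201 in both libraries, while SLC4A2-201 and SLC4A2-202 trade places and CA12-202 and CA12-203 differ widely between libraries.

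The other genes of these routes were taken as 7 lists with 85 genes. Of these, 41 were expressed, beside 58.8% of all protein-coding genes, and 16 were at 0 in both libraries, beside 19.6%. H3K4me3 and H3K27ac were near a start in both replicates for 32, beside 53.5%, and 30 of the 32 were expressed. Of the protein-coding genes with these marks in all replicates and no H3K27me3, 92.9% were expressed, so that share was near the background. The sets differ slightly, since the 32 include FXYD2, which had H3K27me3 as well. H3K27me3 was near a start in both replicates for 19, beside 11.4%, and 4 of the 19 were expressed. The share expressed among all protein-coding genes with H3K27me3 in both replicates is not given, so these 4 have no background beside them. The 4 expressed were SLC4A11, the pump regulators FXYD2 and FXYD6, and the mineralocorticoid receptor NR3C2. All 4 also had H3K4me3 near a start in both replicates. H3K27ac was near a start of FXYD2 in both replicates and of SLC4A11 and NR3C2 in replicate 1. Peaks were pooled over all starts of a gene, so these marks may lie at separate starts. The loop of Henle cotransporter SLC12A1 had both active marks near a start in both replicates and an FPKM of 0. These 5 genes were singled out after their values were seen.

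The count of expressed genes in each list below stands beside 58.8% of all protein-coding genes, and each list is short. Of 14 sodium pump genes 6 were expressed. Among them were FXYD5 (mean 94.3 ± 7.88, SD, n = 2), a regulator of the pump, and ATP1B3 (61.8 ± 7.11), another beta subunit. ATP1B3 at 56.7 and 66.8 overlapped ATP1B1 at 60.4 and 62.1. ATP1B4 and FXYD3 were at 0.

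Of 13 genes of sodium-proton exchange 10 were expressed. They were led by EZR (201 ± 6.91), the ezrin that ties membrane proteins to actin, SLC9A3R1 (25.5 ± 2.06), the scaffold NHERF1 that binds NHE3, and CHP1 (22.0 ± 0.626), a cofactor of the exchangers. The partners of NHE3 were thus at clear levels in cells with almost no SLC9A3 RNA. SLC9A4 was at 0.

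Of 17 genes of bicarbonate and anion transport 8 were expressed. The highest were AHCYL1 (34.5 ± 4.10), which encodes IRBIT, a protein that binds NBCe1, the anion exchanger SLC26A6 (9.65 ± 0.130) and SLC4A3 (6.49 ± 0.0125), the anion exchanger AE3. SLC4A2 and SLC4A4 stood above all other SLC4 genes in the list. SLC4A9 was at 0.

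Among 12 other carbonic anhydrases 4 were expressed, namely CA9 (17.8 ± 0.706), a surface enzyme known from hypoxia, CA5B (2.79 ± 0.469) of the mitochondria, CA13 (2.01 ± 0.0293) of the cytosol and CA11. CA9, at 18.3 and 17.3, lay above CA2 and CA12 in both libraries and had H3K4me3 near a start in replicate 1 only and no H3K27ac in either. CA1, CA5A, CA6 and CA10 were at 0.

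Among 14 proton pump genes 6 were expressed, led by ATP6V0D1 (66.4 ± 9.31), ATP6V1G1 (64.7 ± 0.836) and ATP6V1B2 (36.2 ± 0.144), subunits of the vacuolar ATPase found in most cells. ATP6V0D2, ATP6V1G3, ATP4A, ATP4B and ATP12A were at 0, and these are subunits or pumps of specialised cells.

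Of 6 genes of cation-chloride cotransport and the epithelial sodium channel only SLC12A2 (4.06 ± 0.0196), a cotransporter of most cells, was expressed. SCNN1A, a channel subunit, followed at 0.756 ± 0.242, and SLC12A3, the distal cotransporter, at 0.0634 ± 0.0274. SLC12A1 and SCNN1B were at 0. Among 9 kinases and receptors 6 were expressed, with SGK1 (45.3 ± 2.20), WNK1 (24.6 ± 4.31) and NEDD4L (22.7 ± 4.84), which act on sodium transporters, as the highest. AGTR1, the angiotensin receptor, was at 0.

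**Figure D5:**
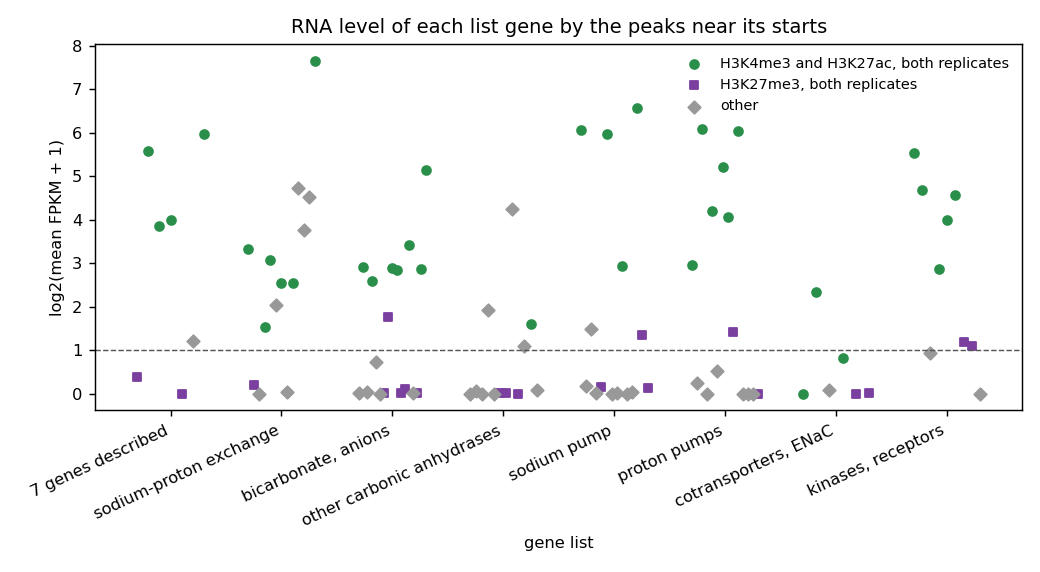
Mean RNA level of each gene by list, as log2(mean FPKM + 1), coloured by the peaks near its starts, where genes with both active marks in both replicates are green and any others with H3K27me3 in both are purple. Most green points lie above the dashed line at an FPKM of 1 and most purple points lie below it, and CA9 is the high grey point among the carbonic anhydrases.

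Within the 85 genes, those most like each of the 7 were found as the genes with the same presence and absence of every mark in every replicate and the smallest difference of mean log2(FPKM + 1) over 2 libraries. ATP1B1 was nearest to ATP1B3, by 0.0074, and to ATP6V1G1. SLC4A2 was nearest to SGK1, by 0.043, and to ATP6V1B2. SLC4A4 and CA2 had the same nearest genes, OXSR1 and ATP6V1C1, at 0.14 and 0.20 for SLC4A4 and at 0.0086 and 0.074 for CA2. For these 4 genes, 31 of the list genes had the same marks. For CA12, with 2 list genes sharing its marks, CA5B differed by 0.70. SLC9A3 was nearest to FXYD7 and CA7, among 3 with its marks, and CA4 to CA8 and SCNN1G, among 8.

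The proximal tubule label of the cells was checked against 10 markers. Of these GGT1, a brush border enzyme, had a mean FPKM of 61.1 and the glucose carrier SLC5A2 one of 1.96. The others were below 1, among them AQP1 at 0.205, ANPEP at 0.163, SLC34A1 at 0.109 and CUBN at 0.0375, with LRP2, SLC22A6 and HNF4A at 0. Most defining markers of the proximal tubule were thus absent or nearly so, as were SLC9A3 and CA4, and their part in the levels above was not tested. Of 7 genes listed for epithelium 6 were expressed, beside 58.8% of all protein-coding genes. They were led by KRT8 at 182 and included the cadherin CDH2 at 59.5, while the cadherin CDH1 was at 0.247. Of the markers of other cells, those of podocytes were at most 0.00636 and UMOD and AQP2, of the loop and collecting duct, were at 0. The highest endothelial marker, CDH5, was at 0.0202. CD68 was at 39.6 with the leukocyte gene PTPRC at 0, and COL1A1 was at 40.1 with PDGFRB at 0.813. In a bulk sample, fewer cells with a transcript and less of it per cell cannot be told apart.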

How the data were processed

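HK2 cells of 1 condition were profiled by ChIP-seq and RNA-seq. Per the labels and the study's methods, the authors mapped ChIP-seq reads with Bowtie2 on hg19. Each replicate had its own peak calling by MACS2. The deposited peak lists give limits and no score, fold or signal, so the read depth behind a peak is unknown and absence of a peak is not absence of the mark. The lists held 28615 and 73505 peaks of H3K4me3, 57687 and 38554 of H3K27ac and 45858 and 32639 of H3K27me3 in replicates 1 and 2.

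For RNA-seq, the authors deposited FPKM, TPM and coverage per transcript from StringTie 1.3.3. The transcripts are those of GENCODE version 27 with GRCh38 coordinates, while the methods name hg19. No coordinate of those values was used. Genes were joined by Ensembl identifier without version to GENCODE version 44 on GRCh37. Coverage divided by FPKM gave a depth of 5.67 and 5.52 gigabases.

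FPKM was summed over transcripts of a gene. An FPKM of 1 in both libraries was the level limit. A peak was near a start within 1 kb of any annotated start. A body share was the percent of bases under peaks of both replicates. Level differences used a pseudocount of 1 on the log2 scale. No test was run. Overlap code was tested on simulated intervals. Python 3.11.15, numpy 2.4.6, pandas 2.3.3 and matplotlib 3.10.9 were used.

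Genes and lists were chosen with earlier results of these data known. Named were all 7 genes, the 3 highest of each list, genes at 0 where a list had at most 5, and the marker genes. Values of some genes that this rule names are not reported here. The marker PECAM1 had a level and no peak values.

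Alternatives were TPM, protein-coding transcripts only, other limits and pseudocounts, windows of 500 bp and 2 kb, other start sets, other replicate rules and peaks of at least 500 bp. Libraries were also left out in turn. No interval could be given, since the values carry no counts.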

Additional observations from a re-analysis of the deposited data

How the results depend on the processing

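The 4 genes with both active marks and the 2 genes with H3K27me3 kept these counts under every alternative run. The count of expressed genes was 5, and it was 4 with protein-coding transcripts only or a limit of 5 and 6 with a limit of 0.1. In TPM the median of the 7 means was 37.1, against 13.4 in FPKM, which is a change of unit. The median share of the gene under H3K27ac was 2.77% where both replicates were required and 4.92% with either. Leaving out 1 ChIP replicate gave 2.77% to 4.92%. Values of single genes moved in 48 cases, mostly body shares, and not in 77, and none reversed. The limit was the SD between replicates, or, for differences between libraries, the SD of those differences over the 7 genes. Without ChIP replicate 2 the H3K27ac share was 13.8% for SLC4A4, 14.9% for ATP1B1 and 36.2% for SLC4A2. The H3K27ac share of ATP1B1 was 7.51% of the gene and 45.2% of its canonical span, a limit chosen after seeing the data. SLC9A3 differed between libraries by -0.13 (log2) with a pseudocount of 1 and by -0.58 with none. No paired analysis was possible because no result comes from a test, and the marks and RNA were each measured under 1 condition. Peaks without scores limit any statement on strength, and 2 libraries limit the error of each level.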
